A study of Mus musculus with 20 samples.

Results

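The respiratory chain genes described here were the 101 entries whose symbol began with Nduf, Uqcr, Atp5, mt- or Cox4 to Cox8, or was Sdha, Sdhb, Sdhc, Sdhd, Cyc1 or Cycs. The rule goes by name and uses no measured value, although the set was proposed with earlier results of these data known, and it was applied to 11296 genes held by both count tables of the series under an unshared name. Mitochondrial DNA encodes 13 of them and nuclear DNA the other 88. Grouped by symbol, the nuclear members were 37 counted as subunits of complex I and 8 assembly factors of complex I (Ndufaf1 to Ndufaf8). The others were 4 of complex II, 9 of complex III, 13 of complex IV, 16 genes of complex V and the gene for cytochrome c. These groups go by name and may not match the role of every gene. None was lost to the filter on low counts.

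RNA was sequenced from sorted epithelial cells (EpCAM+ and negative for 7AAD, CD45, CD31 and TER119) of small-intestinal crypts of C57BL/6J mice aged 8 weeks. All animals carried Lgr5-GFP, a reporter of crypt stem cells. The 4 groups, of 5 libraries each, were Itgb7-/- (KO) GFP-low, Itgb7+/+ (WT) GFP-low, KO GFP-high and WT GFP-high. The submitters name GFP-low cells as transit-amplifying cells and GFP-high cells as stem cells, and KO mice lack the integrin beta 7 subunit, best known from gut-homing lymphocytes. Libraries carry the numbers 2, 3, 4, 5 and 6 in KO and 1, 3, 6, 7 and 8 in WT, with the same numbers in both populations. Per-library values below follow that order. The labels do not say that each number is a separate animal, so p-values measure only the spread between these libraries.

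The respiratory chain carries electrons from NADH and succinate to oxygen in the inner mitochondrial membrane. Complexes I and II feed electrons to ubiquinone, complex III passes them to cytochrome c, and complex IV, cytochrome c oxidase, hands them to oxygen. Complex V, the ATP synthase, uses the resulting proton gradient to make ATP. Complex II is wholly nuclear-encoded, whereas complexes I, III, IV and V each combine nuclear subunits with subunits that mitochondrial DNA encodes. In the intestine, mitochondrial respiration is active in Lgr5+ stem cells, whose neighbouring Paneth cells are known for glycolysis.

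Promoter sequence is shown for 5 nuclear members on which the results below turn: Cycs, Cox7a1 and Cox6b2, which differed between the populations without overlap, and Cox6a1 and Cox8a, which varied together between libraries. Each stretch runs from 250 to 51 bases before the RefSeq gene start (GRCm38.p6), 5′ to 3′ on the gene's strand, with capitals marking GCATGCGC, the core letters of sites for nuclear respiratory factor 1, and CCAAT, on either strand.
Cycs, chr6:50566620-50566819, minus strand: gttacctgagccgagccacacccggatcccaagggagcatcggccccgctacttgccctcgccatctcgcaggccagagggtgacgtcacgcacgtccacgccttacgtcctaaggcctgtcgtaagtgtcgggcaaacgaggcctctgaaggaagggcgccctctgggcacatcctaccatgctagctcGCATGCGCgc
Cox7a1, chr7:30183921-30184120, plus strand: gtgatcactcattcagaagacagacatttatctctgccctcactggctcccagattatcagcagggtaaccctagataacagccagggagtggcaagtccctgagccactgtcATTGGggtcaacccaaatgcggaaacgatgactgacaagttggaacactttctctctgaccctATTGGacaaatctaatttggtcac
Cox6b2, chr7:4753145-4753344, minus strand: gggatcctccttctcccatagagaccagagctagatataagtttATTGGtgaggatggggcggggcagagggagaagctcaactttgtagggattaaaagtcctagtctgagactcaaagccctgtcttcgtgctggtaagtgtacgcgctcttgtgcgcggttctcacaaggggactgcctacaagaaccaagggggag
Cox6a1, chr5:115349009-115349208, minus strand: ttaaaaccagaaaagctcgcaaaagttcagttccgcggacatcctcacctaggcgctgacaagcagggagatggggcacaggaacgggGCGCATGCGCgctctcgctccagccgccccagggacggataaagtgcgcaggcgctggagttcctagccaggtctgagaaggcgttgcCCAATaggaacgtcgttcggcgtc
Cox8a, chr19:7217667-7217866, minus strand: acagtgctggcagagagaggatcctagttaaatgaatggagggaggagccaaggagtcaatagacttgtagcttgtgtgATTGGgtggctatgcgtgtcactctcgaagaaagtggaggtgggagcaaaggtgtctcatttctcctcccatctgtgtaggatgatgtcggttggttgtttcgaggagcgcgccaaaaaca
In these stretches Cycs held GCATGCGC once, starting at base -60. Cox6a1 held it on both strands at bases -162 and -160, as overlapping copies within the palindrome GCGCATGCGC, and CCAAT at base -74. Cox7a1, Cox6b2 and Cox8a showed CCAAT on the opposite strand only, as ATTGG.

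Windows of 250 bases before to 50 bases after the start were found for 75 of the 88 nuclear members and for 8867 genes of both tables. GCATGCGC, searched on both strands, stood in 13 of the 75 members (17.3%) and in 6.29% of all genes. CCGGAAG, the letters of many ETS-family sites, stood in 18 members (24.0%) and in 21.5% of all genes, and CCAAT in 34 members (45.3%) and 43.8% of all genes. The 13 members with GCATGCGC came from all 5 complexes and cytochrome c: Atp5g2, Atp5k, Atp5l, Cox6a1, Cycs, Ndufa11, Ndufa6, Ndufa8, Sdhb, Uqcr11 and Uqcrc1, with the assembly factors Ndufaf4 and Ndufaf5. Of the 36 members with a window that rose in GFP-low over GFP-high cells of KO mice, 8 held these letters, against 5 of the other 39. A match of letters is a description and not a binding site.

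Library totals ran from 20900404 to 27838392 counts. The GFP-low libraries matched their label in that all 13 stem cell markers, Lgr5 among them, were lower than in GFP-high libraries of both genotypes, but they also carried more RNA of differentiated cells. All 10 Paneth, 8 goblet, 9 enteroendocrine and 7 tuft cell markers measured in both tables, and 10 of 11 markers of absorptive enterocytes, rose in GFP-low over GFP-high cells in KO and in WT. Of 12 genes known to respond to tissue dissociation, 10 rose in KO and 5 in WT. Among all genes, 26.2% rose and 24.4% fell in KO, and 22.0% rose and 21.4% fell in WT. Paneth marker and Defa genes took 11.47 ± 4.74% of counts in KO GFP-low, 17.39 ± 8.65% in WT GFP-low, 4.92 ± 1.61% in KO GFP-high and 5.22 ± 2.80% in WT GFP-high libraries (mean ± SD of 5). By library these shares ran from 3.60% to 15.2% in KO GFP-low, 7.82% to 27.1% in WT GFP-low, 2.70% to 6.62% in KO GFP-high and 2.30% to 8.61% in WT GFP-high. WT GFP-low libraries 3 and 8 stood apart, with 27.06% and 26.02% of counts in these genes. Counts of members called between 2 groups, mean member shares and named members whose call these libraries decide are therefore also given without them. The other gene lists, range counts and alternative fits are given with all 5 WT GFP-low libraries only. Without libraries 3 and 8, Ndufs5, Sdhb, Sdhd, Cycs, Cox7a1 and Cox6b2 kept their WT calls below, with log2 fold changes of 0.49, 0.36, 0.36, 0.65, 3.04 and -1.92 in that order. The part of this cell mixture in the results below was not tested, and in such bulk samples fewer cells of a type and less RNA per cell cannot be told apart. Itgb7 has no row in the tables used here, so it could not check the genotype labels.

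The mitochondrially encoded members took a smaller share of the counts in GFP-low than in GFP-high libraries. In KO they took 4.63, 3.64, 4.65, 3.56 and 3.41% in GFP-low, against 5.42, 5.34, 6.69, 4.13 and 4.44% in GFP-high libraries. In WT they took 5.24, 2.91, 5.95, 3.37 and 2.13% in GFP-low, against 6.50, 5.15, 7.14, 3.85 and 4.53% in GFP-high libraries. The ranges of the populations overlapped in both genotypes, while the GFP-low library was the lower in all 5 same-numbered pairs of KO and all 5 of WT, also with only nuclear genes or only non-Paneth genes as the total. By genotype the mean shares lay within 1 SD of each other, at 3.98 ± 0.61% in KO and 3.92 ± 1.61% in WT GFP-low libraries, and 5.20 ± 1.0% in KO and 5.43 ± 1.36% in WT GFP-high libraries. Without WT GFP-low libraries 3 and 8 the WT GFP-low mean was 4.85 ± 1.33% (n = 3), which is above the KO GFP-low mean by more than the KO SD. Counting error was small beside this spread, with 95% Wilson intervals of at most 0.011 percentage points to either side of a share.

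The nuclear members together did not shift in 1 direction as a share of counts. In KO they took 4.17, 3.08, 2.89, 3.51 and 3.10% of GFP-low, against 3.43, 3.33, 3.11, 3.22 and 3.21% of GFP-high libraries, and 3 of 5 pairs were lower in GFP-low. In WT they took 2.92, 2.70, 3.53, 3.35 and 2.52% of GFP-low, against 3.04, 3.24, 3.16, 3.50 and 3.37% of GFP-high libraries, and 4 of 5 pairs were lower in GFP-low. With Paneth and Defa genes left out of the total, the nuclear share was higher in GFP-low in 5 of 5 KO pairs and 4 of 5 WT pairs. The WT GFP-low mean was 3.01 ± 0.43% with all 5 libraries and 3.27 ± 0.31% without libraries 3 and 8.

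**Figure D1:**
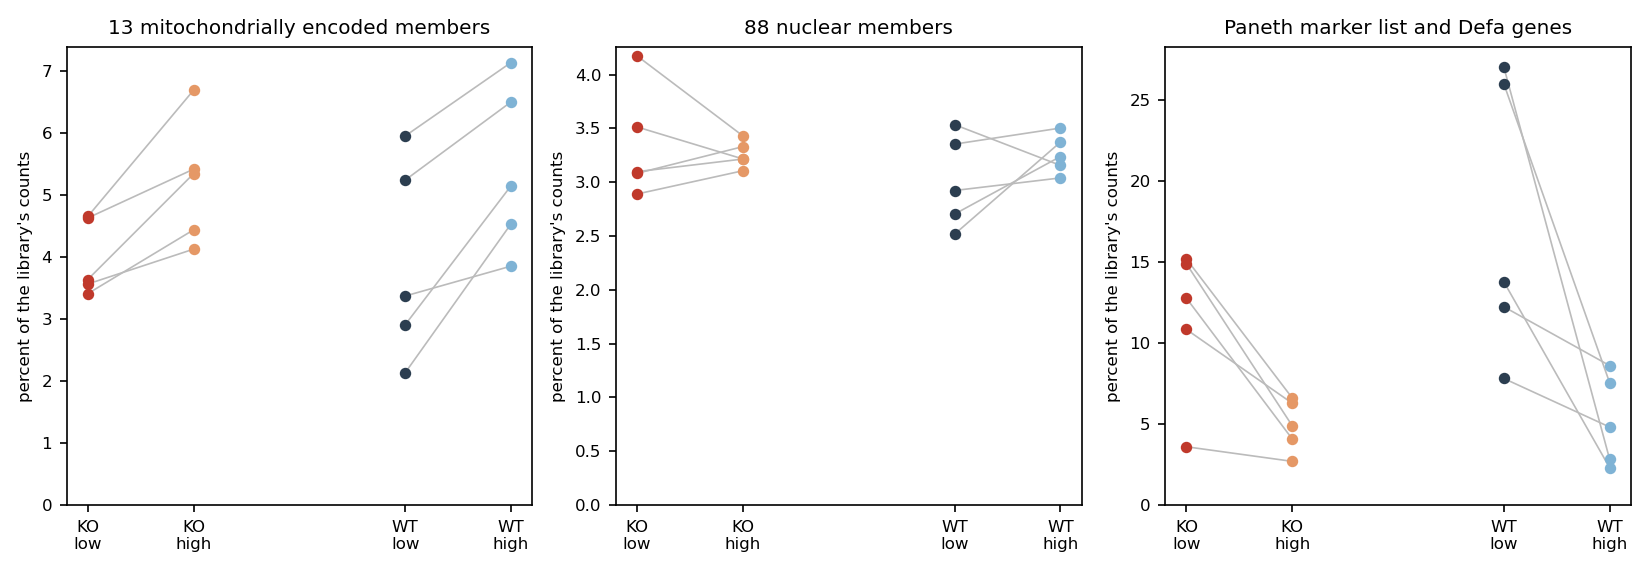
Share of each library's counts, in percent, taken by the 13 mitochondrially encoded members, the 88 nuclear members and the Paneth marker and Defa genes. Each point is a library and grey lines join libraries of the same number; the mitochondrially encoded share was lower in GFP-low in all 5 pairs of each genotype, and the Paneth share was higher.

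Per kilobase of gene, the mitochondrially encoded members differed widely in level. Levels are given in CPM, counts scaled to a common library total, here adjusted by TMM (the trimmed mean of M-values). Over the 20 libraries, CPM per kilobase averaged 14030.2 for mt-Co3 and 10492 for mt-Co1, subunits of complex IV, and 8537 for mt-Atp6 of complex V. The complex III subunit mt-Cytb followed at 4702, and mt-Co2 at 2859.9. The complex I subunits were lower than these 5, with mt-Nd1 at 1836, mt-Nd4 at 1421, mt-Nd2 at 841, mt-Nd3 at 508, mt-Nd5 at 239 and mt-Nd6 at 132 CPM per kilobase. At the low end were mt-Nd4l at 91.1 and mt-Atp8 at 85.5 CPM per kilobase. Over the 20 libraries the range of each gene overlapped that of its neighbour in this order. Some genes further apart did not overlap: the lowest library for mt-Co3 had 8935 and the highest for mt-Cytb 6409 CPM per kilobase. All were read in the same libraries, so overlapping ranges do not show that neighbours changed order within a library, which was not tested.

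Genes known to share a bicistronic mRNA were nevertheless counted very unequally. The genes mt-Atp6 and mt-Atp8 overlap by 43 bases, yet mt-Atp6 had 105.4 times the level of mt-Atp8 per base on average, between 59.0 and 168 times in single libraries. Between mt-Nd4 and mt-Nd4l, which overlap by 7 bases, the ratio averaged 16.5 and ran from 6.36 to 25.5. The sources used here do not say how reads in overlapping genes were assigned, and the part of that in these ratios was not tested. Strand is likewise not given, and mt-Nd6 lies on the opposite strand to the other 12.

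GFP-low cells of both genotypes carried more transcript of a set of nuclear respiratory chain genes than GFP-high cells, after scaling by TMM. In KO mice 41 of 101 members rose (40.6%) and 4 fell (3.96%), where 26.2% of all genes rose and 24.4% fell (edgeR's quasi-likelihood test, Benjamini-Hochberg adjusted p under 0.05). In WT mice 25 members rose (24.8%) and 3 fell (2.97%), where 22.0% of all genes rose and 21.4% fell. Members were thus called about as often as other genes or less (44.6% of members against 50.5% of all genes in KO, and 27.7% against 43.4% in WT), but few of the called members fell. The median log2 fold change of the members was 0.19 in KO and 0.19 in WT, beside -0.01 for all genes in each. All 25 members that rose in WT were among the 41 that rose in KO (61.0% of the KO list), and all 3 that fell in WT were among the 4 that fell in KO. Across all genes 89.5% of the WT rises were KO rises, and 75.0% of the KO rises were WT rises.

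With the replicate number as a block, since same-numbered libraries deviated together, 44 members rose and 7 fell in KO, and 34 rose and 3 fell in WT. The block also gave more calls among all genes. In KO 3310 of 11294 genes rose and 3154 fell, against 2957 and 2751 without it. In WT 2924 of 11293 rose and 2920 fell, against 2479 and 2422. Without WT GFP-low libraries 3 and 8, 17 members rose and 2 fell in WT, and the members' median log2 fold change was 0.18. In that fit 1994 of 11296 genes rose and 1643 fell, so the members' rises were near the share of all genes and their falls below it. The GFP-low range lay wholly above the GFP-high range for 21 members in KO and 14 in WT, beside 18.1% and 15.0% of all genes, and wholly below it for 4 members in KO and 3 in WT, beside 17.3% and 13.7%.

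The direction depended on the scaling. With library totals alone in place of TMM, the median log2 fold change of all genes was -0.27 in KO and -0.37 in WT, and that of the members -0.06 and -0.17. On that scale 9 members rose and 19 fell in KO, where 15.7% of all genes rose and 42.0% fell, and 5 members rose and 14 fell in WT, where 10.5% rose and 43.3% fell. The members' median lay above that of all genes by 0.20 in KO and 0.21 in WT under TMM, and by 0.21 in KO and 0.20 in WT under library totals. Rises and falls below are those under TMM, relative to the bulk of genes.

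By complex, complex I subunits rose in 16 of 37 cases (43.2%) and fell in 1 in KO, where 26.2% of all genes rose. In WT they rose in 8 (21.6%) and fell in 1, close to the 22.0% of all genes that rose, so the WT count of rises in complex I was at the background. Complex II rose in 2 of 4 in each genotype, complex III in 5 of 9 in KO (55.6%) and 4 in WT (44.4%), and cytochrome c in both. Complex IV rose in 6 of 13 (46.2%) and fell in 1 in KO, and rose in 5 (38.5%) and fell in 1 in WT. Complex V rose in 9 of 16 (56.2%) and fell in 1 in KO, and rose in 5 (31.2%) and fell in 1 in WT. Without WT GFP-low libraries 3 and 8, complex I gave 6 rises and 1 fall in WT, complex II 2 rises and complex III none. In that fit 1994 of 11296 genes rose and 1643 fell, so the complex I rises were again near the share of all genes. Complex IV then gave 4 rises and 1 fall in WT and complex V 4 rises, and cytochrome c kept its call. These groups are small. The 8 assembly factors of complex I gave 2 rises and 1 fall in KO and no call in WT, where 0 had an unadjusted p under 0.05. None of the 13 mitochondrially encoded members passed edgeR's test without a replicate block in either genotype, with medians of -0.12 in KO and -0.02 in WT. In that fit 1 in KO and 0 in WT had an unadjusted p under 0.05, beside 56.3% and 51.2% of all genes. With the replicate block 1 rose and 1 fell in KO and none passed in WT, and DESeq2 called 1 in KO and 0 in WT. The median of these 13 members was -0.38 in KO and -0.34 in WT under library totals. Under TMM the WT median was -0.02 with all libraries and 0.12 without WT GFP-low libraries 3 and 8. Under library totals the medians of complexes I and V turned negative in both genotypes (-0.06 and -0.005 in KO, -0.16 and -0.15 in WT), and in WT also those of complexes II, III and IV, while cytochrome c kept its rise in both (0.59 in KO and 0.38 in WT).

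**Figure D2:**
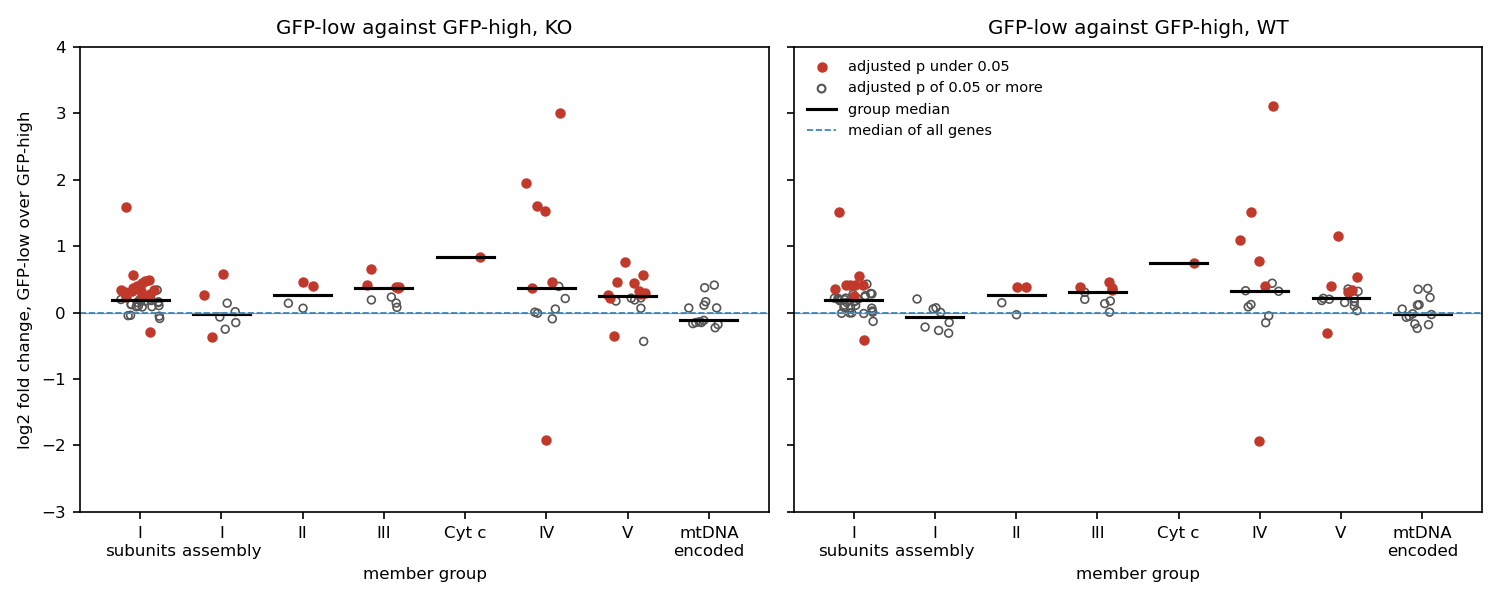
Log2 fold change of GFP-low over GFP-high cells (y axis) for each of the 101 members by complex and origin, KO left and WT right. Filled points passed an adjusted p of 0.05, black bars are group medians and the dashed line is the median of all genes; most filled points lie above 0, Cox7a1 is the highest and Cox6b2 the lowest, and no mitochondrially encoded gene is filled.

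Among complex I subunits, the accessory subunits Ndufs5, Ndufa11, Ndufb10 and Ndufv3 rose by similar amounts. Ndufs5 stood at 152, 114, 122, 132 and 132 CPM in KO GFP-low, against 98.6, 94.3, 96.2, 92.7 and 91.3 CPM in KO GFP-high libraries. In WT it stood at 117, 155, 137, 138 and 132 CPM in GFP-low, against 96.2, 88.8, 83.9, 94.0 and 103 CPM in GFP-high libraries. The populations did not overlap in either genotype, and the log2 fold change was 0.47 ± 0.08 in KO (SE, adjusted p = 3.81e-04) and 0.54 ± 0.09 in WT (adjusted p = 6.25e-04). Log2 fold changes in KO and WT were 0.56 ± 0.09 and 0.42 ± 0.09 for Ndufb10, 0.48 ± 0.08 and 0.41 ± 0.09 for Ndufa11, 0.44 ± 0.09 and 0.42 ± 0.08 for Ndufv3, and 0.39 ± 0.10 and 0.41 ± 0.08 for Ndufb7, also an accessory subunit. Ndufs8, a core subunit of the electron path, rose in both (0.33 ± 0.08 in KO and 0.25 ± 0.09 in WT). In fits that left out 1 library each, Ndufs8 passed in 2 of 10 in WT, where its value under library totals was -0.11. Without WT GFP-low libraries 3 and 8 its WT value was 0.22 and did not pass (adjusted p = 0.128).

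Ndufa7, an accessory subunit, went the other way. It stood at 279, 254, 220.2, 334 and 288 CPM in GFP-low and 332, 343, 358, 314 and 348 CPM in GFP-high libraries of KO mice. In WT it stood at 254, 274, 269, 284 and 292 CPM in GFP-low and 323, 297, 389.8, 388 and 425 CPM in GFP-high libraries. All WT GFP-low libraries lay below the WT GFP-high ones, whereas KO GFP-low library 5 reached into the KO GFP-high range, and the log2 fold change was -0.29 ± 0.10 in KO (adjusted p = 0.0301) and -0.41 ± 0.11 in WT (adjusted p = 0.00871). The KO call passed in 5 of 10 fits that left out 1 library (adjusted p up to 0.0703). Of the assembly factors, Ndufaf2 fell in KO (-0.37 ± 0.10, adjusted p = 0.00731) and gave -0.22 ± 0.11 in WT (adjusted p = 0.119). Ndufaf3 and Ndufaf8 rose in KO (0.26 ± 0.09 and 0.58 ± 0.22), though the Ndufaf3 value was -0.005 under library totals, and they passed in only 5 (Ndufaf3) and 4 (Ndufaf8) of the 10 fits that left out 1 library.

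In complex II, the iron-sulphur subunit Sdhb and the membrane anchor Sdhd rose in both genotypes. Sdhb averaged 1067 ± 92.2 CPM in KO GFP-low and 815 ± 38.5 CPM in KO GFP-high libraries (SD, n = 5 each), a log2 fold change of 0.40 ± 0.08 (adjusted p = 0.00132). In WT it averaged 1065 ± 130.0 CPM in GFP-low and 817 ± 47.2 CPM in GFP-high libraries (0.38 ± 0.11, adjusted p = 0.0118). Sdhd gave 0.46 ± 0.09 in KO and 0.38 ± 0.10 in WT, and for both genes no GFP-low library fell within the GFP-high range. Sdha, the flavoprotein, and Sdhc, the other anchor, did not pass in either genotype.

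In complex III, the core protein gene Uqcrc1 rose by 0.65 ± 0.12 on the log2 scale in KO (adjusted p = 3.54e-04), with 2714, 2606, 2512, 2932 and 2638 CPM in GFP-low and 1536, 1883, 1318, 1957 and 1911 CPM in GFP-high libraries. In WT it had 2492, 2588, 2447, 2647 and 2176 CPM in GFP-low and 1678, 2050.1, 1838, 2285 and 2149.6 CPM in GFP-high libraries, a log2 fold change of 0.30 ± 0.12 (adjusted p = 0.0518, and 0.040 with the replicate block), and -0.05 under library totals. The populations were apart in KO and overlapped in WT. Uqcrfs1, the Rieske iron-sulphur protein, Cyc1, the cytochrome c1 that hands electrons on to cytochrome c, and the small subunits Uqcrb and Uqcr11 rose in both genotypes, by 0.37 to 0.41 in KO and 0.34 to 0.46 in WT. Without WT GFP-low libraries 3 and 8, none of the 9 complex III genes passed in WT (adjusted p of 0.070 to 0.098 for these 4), and under library totals the WT value of Cyc1 was -0.004. In fits that left out 1 library, Cyc1 passed in 3 of 10 in each genotype, Uqcrfs1 in 4 in KO and 5 in WT, and Uqcrb lost its WT call without WT GFP-low library 3 (adjusted p = 0.055) or WT GFP-high library 3 (0.053).

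Cycs encodes cytochrome c, the mobile carrier between complexes III and IV and a trigger of apoptosis when released. It had 623, 487, 624, 421 and 468 CPM in KO GFP-low, against 340.2, 269.6, 322, 254 and 297 CPM in KO GFP-high libraries. In WT it had 388, 679, 542, 473 and 424 CPM in GFP-low, against 317, 319, 268, 288 and 299 CPM in GFP-high libraries. Every GFP-low library lay above every GFP-high library of its genotype, and the log2 fold change was 0.84 ± 0.13 in KO (adjusted p = 9.29e-05) and 0.75 ± 0.14 in WT (adjusted p = 0.00111). Its expected counts were not whole in any of the 20 libraries, so reads were shared with other loci and its level is uncertain to that extent.

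Complex IV held the largest changes in both directions, both in subunits with tissue isoforms. Cox7a1, known as the heart and muscle isoform of subunit VIIa, had 52.5, 35.7, 31.6, 67.4 and 43.6 CPM in KO GFP-low, against 9.15, 4.53, 4.30, 6.47 and 4.43 CPM in KO GFP-high libraries. In WT it had 40.5, 76.4, 70.5, 56.2 and 51.2 CPM in GFP-low, against 6.52, 5.35, 9.29, 6.75 and 6.04 CPM in GFP-high libraries. The lowest GFP-low library, at 31.6 CPM, was above the highest GFP-high library, at 9.29 CPM, and the log2 fold change was 3.01 ± 0.25 in KO (adjusted p = 5.22e-07) and 3.12 ± 0.20 in WT (adjusted p = 3.66e-07). Cox7a2, the widely expressed isoform of the same subunit, also rose, by 0.46 ± 0.13 in KO and 0.40 ± 0.14 in WT, where 5 of 10 fits without 1 library passed. Its WT call was lost without WT GFP-low libraries 3 and 8. The related Cox7a2l, which takes part in joining complexes III and IV into supercomplexes, gave -0.09 ± 0.08 in KO and -0.15 ± 0.11 in WT and did not pass.

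Cox6b2, known as the testis isoform of subunit VIb, was low throughout and lower in GFP-low cells. It had 0.896, 2.11, 0.943, 1.60 and 1.70 CPM in KO GFP-low, against 6.26, 5.75, 3.34, 6.51 and 6.11 CPM in KO GFP-high libraries. In WT it had 1.51, 1.71, 1.51, 1.51 and 1.27 CPM in GFP-low, against 4.95, 5.13, 6.57, 6.68 and 5.38 CPM in GFP-high libraries. The populations did not overlap, and the log2 fold change was -1.93 ± 0.27 in KO (adjusted p = 5.10e-05) and -1.93 ± 0.18 in WT (adjusted p = 7.54e-06). These values rest on 18 to 46 counts per KO GFP-low library and 21 to 34 per WT GFP-low library, beside 76 to 189 per KO GFP-high and 117 to 201 per WT GFP-high library. Its widely expressed counterpart Cox6b1 rose in KO (0.37 ± 0.09, adjusted p = 0.00381) and gave 0.33 ± 0.13 in WT (adjusted p = 0.0536, and 0.037 with the replicate block). Cox7b, another small subunit, gave 0.21 ± 0.10 in KO and 0.32 ± 0.15 in WT (adjusted p = 0.102 in WT, and 0.029 with the replicate block), and under library totals both values of Cox7b and the WT value of Cox6b1 were below 0. The other complex IV genes that rose in both genotypes, Cox5b, Cox6a1 and Cox8a, varied strongly within groups and are described at the end.

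In complex V, the c subunit of the rotor ring is encoded by 3 genes whose mature protein is the same, and these did not move together. Atp5g3 rose in both genotypes, with 1263, 845, 906, 1181 and 1037 CPM in KO GFP-low and 812, 784, 837, 706 and 710.1 CPM in KO GFP-high libraries (0.45 ± 0.11, adjusted p = 0.0046), and 0.39 ± 0.09 in WT (adjusted p = 0.00396). Atp5g1 gave 0.44 ± 0.12 in KO (adjusted p = 0.00568) and 0.30 ± 0.09 in WT (adjusted p = 0.0178), though the WT value was -0.05 under library totals. Expected counts of Atp5g1 were not whole in 13 of 20 libraries, so some of its reads were shared with other loci. Those of Atp5g2 and Atp5g3 were whole in every library. Atp5g2 fell, with 427, 342, 344, 477 and 422 CPM in KO GFP-low and 562, 494, 541, 493 and 493 CPM in KO GFP-high libraries (-0.35 ± 0.10, adjusted p = 0.0113). In WT it had 398, 431, 400.3, 447 and 422 CPM in GFP-low and 449, 502, 525, 519.7 and 599.5 CPM in GFP-high libraries (-0.31 ± 0.10, adjusted p = 0.0211, and 0.061 without WT GFP-low libraries 3 and 8 or 0.056 without WT GFP-high library 8). The ranges of Atp5g2 did not overlap between populations in either genotype.

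Elsewhere in complex V, Atp5k and Atp5j2, small subunits of the membrane part, rose in both genotypes (0.57 ± 0.17 and 0.33 ± 0.11 in KO; 0.53 ± 0.14 and 0.34 ± 0.10 in WT, where the Atp5j2 value was -0.008 under library totals). The KO call of Atp5j2 passed in 6 of 10 fits that left out 1 library, and its WT call was lost without WT GFP-low libraries 3 and 8 (adjusted p = 0.060). Atp5d, the delta subunit of the central stalk, gave the largest change of the complex, at 0.76 ± 0.17 in KO and 1.15 ± 0.34 in WT. In WT it had 153, 131, 390, 135 and 426 CPM in GFP-low and 136, 87.3, 123, 85.2 and 127 CPM in GFP-high libraries. The WT ranges thus overlapped, and GFP-low libraries 6 and 8 stood far above the other GFP-low libraries. Atp5f1, of the peripheral stalk, rose in KO (0.30 ± 0.08, adjusted p = 0.00878) and gave 0.32 ± 0.13 in WT (adjusted p = 0.0622, and 0.020 with the replicate block), and -0.05 under library totals.

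**Figure D3:**
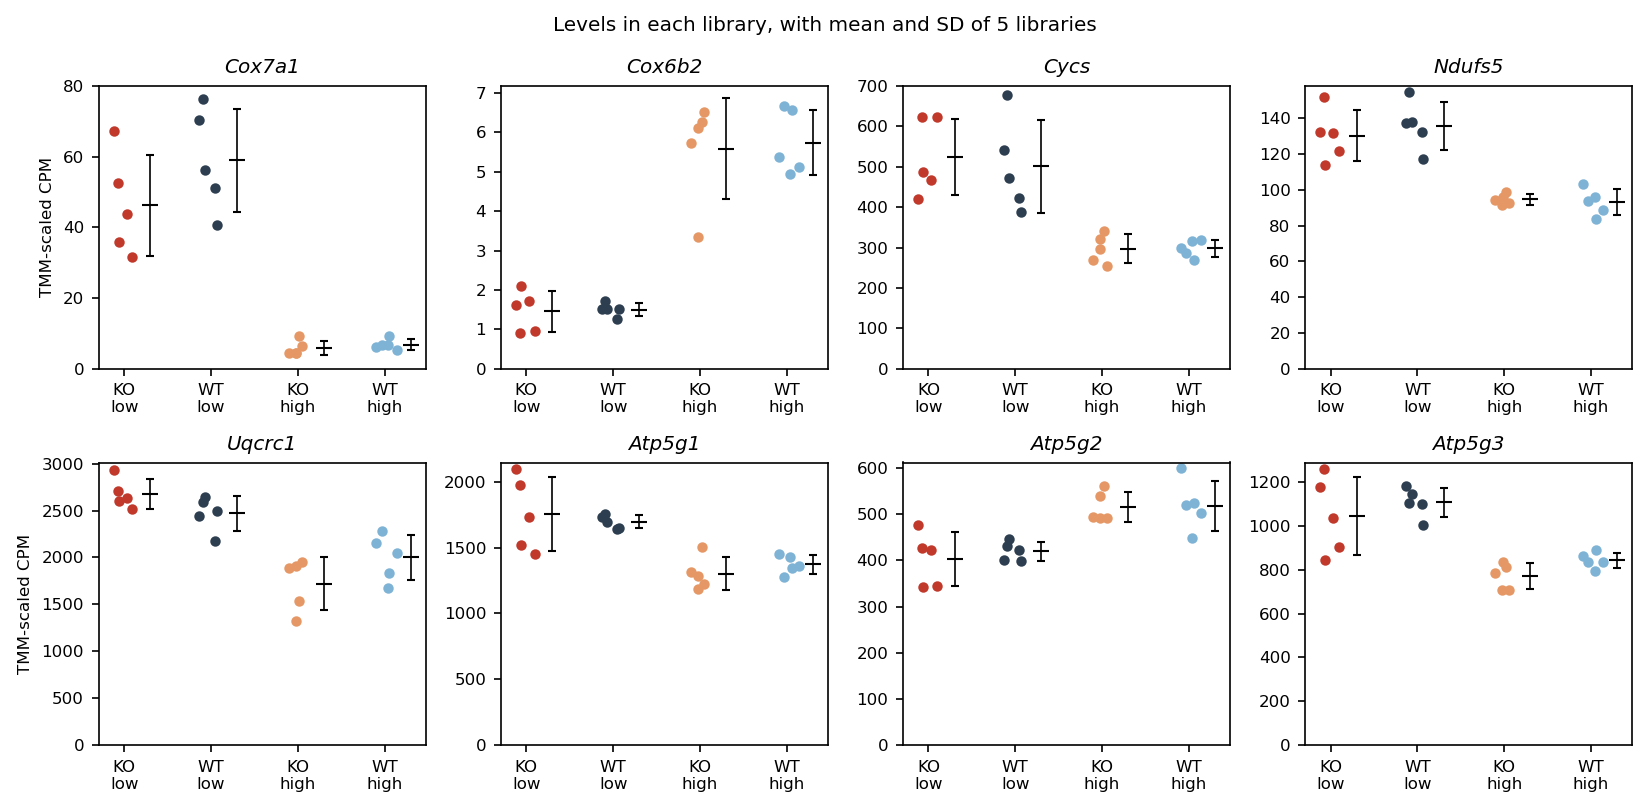
TMM-scaled CPM (linear y axis from 0) of 8 members in each library, by group, with the mean and SD of 5 libraries at the right of each group. GFP-low libraries lie above GFP-high libraries of the same genotype for Cox7a1, Cycs, Ndufs5 and Atp5g3 and below them for Cox6b2 and Atp5g2; for Uqcrc1 in WT and Atp5g1 in KO the populations overlap.

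Of the mitochondrially encoded members, mt-Atp8 came nearest to passing in KO, at 0.41 ± 0.17 (adjusted p = 0.0563), with 16.3, 24.0, 18.9, 19.0 and 17.0 CPM in GFP-low and 10.7, 18.2, 17.2, 10.5 and 15.4 CPM in GFP-high libraries. The ranges overlapped, and the GFP-low library was the higher in all 5 pairs. With the replicate block, mt-Atp8 rose in KO (0.44 ± 0.12, adjusted p = 0.0085) and mt-Cytb fell (-0.23 ± 0.09, adjusted p = 0.040), while none of the 13 passed in WT. Under library totals, 6 of the 13 fell in KO and none in WT, where 42.0% and 43.3% of all genes fell. The KO falls were thus near the share of all genes, and the WT falls below it.

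Genes that build and feed the chain were read from other lists. Among all genes, 26.2% rose and 24.4% fell in KO, and 22.0% rose and 21.4% fell in WT. Of 23 genes for complex IV assembly and copper delivery, 13 rose in KO and 6 in WT, and none fell. The WT rises of this list were near the share of all genes. Higd1a, a small protein that binds complex IV, rose by 0.59 ± 0.09 in KO and 0.79 ± 0.12 in WT, and Coa3, an assembly factor, by 0.50 ± 0.08 in KO and 0.41 ± 0.12 in WT. Sco1, a copper chaperone, rose by 0.92 ± 0.16 in KO and 0.51 ± 0.16 in WT, and Cox15, of haem a synthesis, by 0.70 ± 0.15 in KO and 0.83 ± 0.14 in WT. Of 20 genes of pyruvate entry and the tricarboxylic acid cycle, 10 rose and 1 fell in KO, and 8 rose in WT. Among them were Mdh2, malate dehydrogenase, at 0.88 ± 0.09 in KO and 0.91 ± 0.14 in WT, and Ogdh, of the 2-oxoglutarate dehydrogenase complex, at 0.82 ± 0.09 in KO and 0.68 ± 0.08 in WT. Cs, citrate synthase, rose by 0.51 ± 0.09 in KO and 0.52 ± 0.09 in WT.

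Of 26 genes of mitochondrial biogenesis and mtDNA expression, 10 fell, 3 rose and 13 did not pass in KO, where 24.4% of all genes fell. In WT 8 fell, 3 rose and 15 did not pass, where 21.4% of all genes fell, with medians of -0.25 in KO and -0.27 in WT beside -0.01 for all genes. Twnk, the mtDNA helicase, fell by 0.70 ± 0.11 in KO and 0.78 ± 0.11 in WT on the log2 scale. Tfam, which packages mtDNA and starts its transcription, averaged 57.9 ± 5.26 CPM in KO GFP-low and 84.4 ± 6.36 CPM in KO GFP-high libraries (-0.53 ± 0.09), and gave -0.55 ± 0.13 in WT. Polg2, the accessory subunit of the mtDNA polymerase, gave -0.79 ± 0.14 in KO and -0.45 ± 0.17 in WT, and Ssbp1, which binds single-stranded mtDNA, gave -0.51 ± 0.10 in KO and -0.49 ± 0.11 in WT, and both fell in each genotype. These falls of Twnk, Tfam, Polg2 and Ssbp1 kept their sign and passed under library totals, where 17 of the 26 genes fell in KO and 19 in WT and none rose, beside falls in 42.0% of all genes in KO and 43.3% in WT.

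The 78 mitochondrial ribosomal proteins moved both ways, with 16 rises and 13 falls in KO and 6 rises and 8 falls in WT. Each count was below the share of all genes (26.2% rose and 24.4% fell in KO, 22.0% and 21.4% in WT). Mrpl51 (0.46 ± 0.09 in KO and 0.39 ± 0.11 in WT), Mrpl53 (0.45 ± 0.10 in KO and 0.31 ± 0.10 in WT) and Mrpl55 (0.44 ± 0.10 in KO and 0.38 ± 0.10 in WT) rose in both and Mrpl19 fell in both (-0.22 ± 0.08 in KO and -0.37 ± 0.11 in WT), while Mrpl12 rose in KO (0.54 ± 0.10) and gave 0.15 (adjusted p = 0.223) in WT. Of 21 assembly genes of complexes I, II, III and V outside the Ndufaf group, 3 rose and 2 fell in KO, and 1 rose and 2 fell in WT. These counts were also below those shares. Ecsit, Usmg5 and Atpaf2 rose in KO (0.40 ± 0.08, 0.51 ± 0.12 and 0.31 ± 0.09), and in WT Usmg5 rose (0.44 ± 0.17) and Atpaf1 and Bcs1l fell (-0.29 ± 0.10 and -0.35 ± 0.13). Under library totals, where 42.0% of all genes fell in KO and 43.3% in WT, the counts were 5 rises and 2 falls in KO and 2 and 6 in WT for complex IV assembly, 0 rises and 8 falls in KO and 0 and 10 in WT for the other assembly genes, 0 rises and 33 falls in KO and 1 and 35 in WT for the ribosomal proteins, and 5 rises and 7 falls in KO and 2 and 6 in WT for the tricarboxylic acid cycle. The falls of the ribosomal proteins on that scale were at the share of all genes.

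Loss of Itgb7 moved no member past the threshold in either population. In GFP-low cells none of 101 members differed between KO and WT, where 0.00849% of all genes did, and none had an unadjusted p under 0.05 (6.32% of all genes). In GFP-high cells none passed, as no gene of the whole table did (0%), and 6 members had an unadjusted p under 0.05, beside 9.79% of all genes. Genes of the assembly, tricarboxylic acid cycle, biogenesis and mitochondrial ribosome lists also gave no call between the genotypes. The members' median log2 fold change was -0.02 in GFP-low (0.13 under library totals, where the median of all genes was 0.14, and 0.006 without WT GFP-low libraries 3 and 8, where again no member passed) and -0.01 in GFP-high cells, with standard errors whose median was 0.13 in GFP-low and 0.10 in GFP-high. For the 13 mitochondrially encoded members the GFP-low median was -0.06, and -0.20 without those libraries. Most single values were small, while the widest ran from -0.72 to 0.27 in GFP-low and -1.16 to 0.31 in GFP-high cells. No KO range lay wholly above or below the WT range for any member in either population, where 0.708% of all genes lay above and 0.434% below in GFP-low, and 0.947% above and 0.93% below in GFP-high cells. DESeq2 called 1 member in GFP-high cells, Ndufb2 (-0.79 ± 0.23, adjusted p = 0.043), and none in GFP-low; over all genes it called 50 higher and 95 lower in GFP-high, and 1 higher and 11 lower in GFP-low.

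In GFP-low cells the smallest p values were those of Ndufaf3, a complex I assembly factor (0.20 ± 0.11, adjusted p = 0.812), Ndufs8 (0.17 ± 0.10) and Cox7a1 (-0.35 ± 0.21). Cox7b averaged 302 ± 42.7 CPM in KO and 350.3 ± 54.9 CPM in WT GFP-low libraries (-0.22 ± 0.13, adjusted p = 0.84). The fifth, Ndufb2, an accessory subunit of complex I, gave -0.72 ± 0.45 (adjusted p = 0.84). In GFP-high cells the smallest p values were those of Ndufb2 (-0.78 ± 0.22, adjusted p = 0.235), Cox5b (-0.78 ± 0.22, 0.241), Cox8a (-1.16 ± 0.35, 0.254), Cox6a1 (-0.76 ± 0.24, 0.274) and the assembly factor Ndufaf4 (-0.34 ± 0.12, 0.345).

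**Figure D4:**
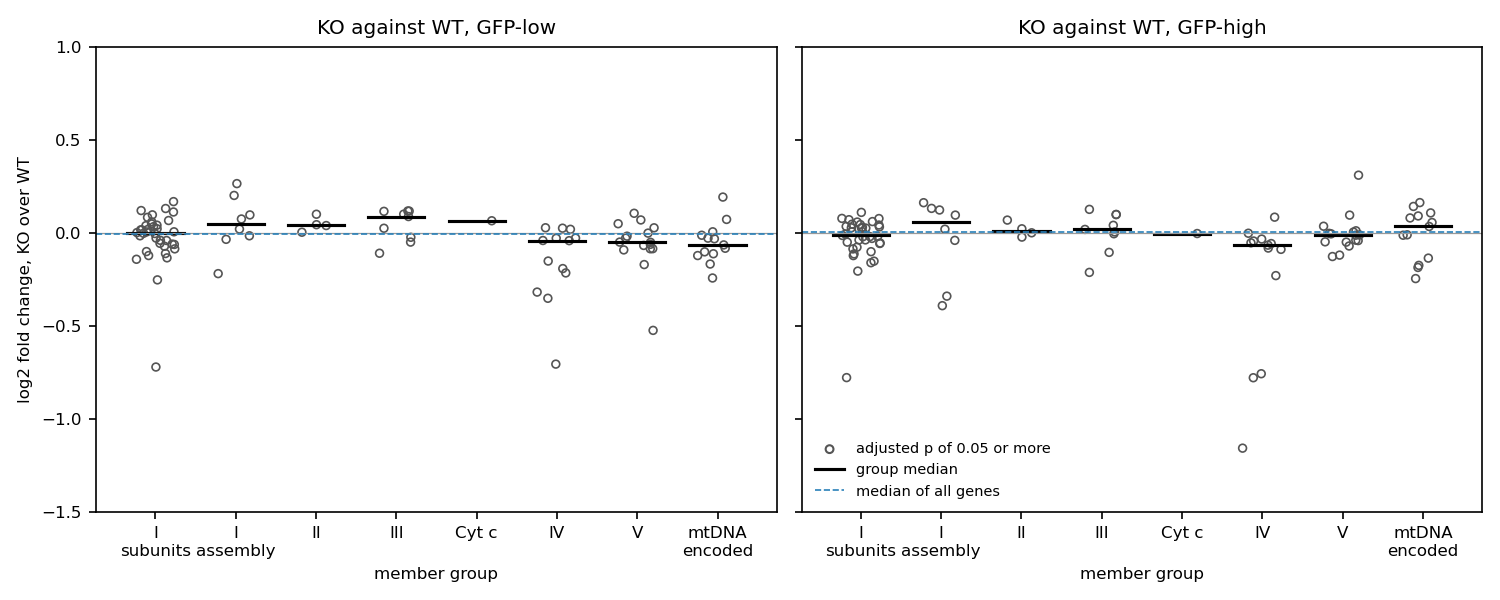
Log2 fold change of KO over WT (y axis) for each of the 101 members by complex and origin, in GFP-low cells (left) and GFP-high cells (right). All points are open because none passed an adjusted p of 0.05, black bars are group medians, and the lowest points in GFP-high cells are Cox8a, Cox5b, Ndufb2 and Cox6a1.

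The KO effect in GFP-low cells did not differ detectably from that in GFP-high cells for any member. None of 101 passed the interaction test by edgeR or DESeq2, as no gene of the 11296 tested did (0%), and 3 members had an unadjusted p under 0.05, beside 3.12% of all genes. Among those with the smallest p were Atp5s, a mitochondrial protein also called factor B (-0.48 ± 0.22, unadjusted p = 0.043), Uqcrc1 (0.34 ± 0.16, 0.0477), Cox6a1 (0.73 ± 0.39, 0.0752) and Ndufaf8 (0.49 ± 0.27, 0.0778), each with an adjusted p of 1 from edgeR's test. Between the populations Atp5s gave -0.44 ± 0.18 in KO (adjusted p = 0.0631, and 0.048 with the replicate block) and 0.03 ± 0.13 in WT (adjusted p = 0.88). The greater number of rises in KO than in WT is therefore not shown to be a difference between the genotypes.

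Cox8a, Cox6a1, Cox5b and Ndufb2 were, with Atp5d, the nuclear members that varied most between libraries of the same group. Cox8a, a small structural subunit of complex IV, had the largest pooled SD of log2 CPM within groups of all 101 members, at 0.77, where the median over all genes was 0.24. It had 579, 271, 163, 549.6 and 465 CPM in KO GFP-low and 279, 211, 724, 491 and 819.7 CPM in WT GFP-low libraries. In GFP-high it had 58.1, 133, 45.9, 105 and 188 CPM in KO and 155, 186, 294, 167 and 385 CPM in WT libraries. Library 4 was the lowest KO library of both populations, and library 8 the highest WT library of both. Cox5b, a subunit on the matrix side of complex IV, had 179.6, 71.3, 48.4, 143 and 127 CPM in KO GFP-low and 71.5, 73.4, 290.1, 141 and 351 CPM in WT GFP-low libraries. The same libraries were at the top as for Cox8a, and the highest WT GFP-low value of Cox5b was 4.91 times the lowest. Expected counts of Cox5b were not whole in 6 of 20 libraries.

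After the group means were removed, the 4 genes rose and fell together over the 20 libraries, with Pearson r from 0.87 (Cox8a and Ndufb2) to 0.98 (Cox5b and Ndufb2). For each gene the points are the same 20 libraries, which share their depth and RNA preparation, and the 4 genes were singled out after their values were seen. The cause was not tested. The same 4 are the members with the lowest KO over WT values in GFP-high cells and are among those with the highest GFP-low over GFP-high values: Cox8a gave 1.95 ± 0.39 in KO and 1.09 ± 0.37 in WT, Cox5b 1.61 ± 0.30 and 1.52 ± 0.43, Ndufb2 1.59 ± 0.28 and 1.52 ± 0.43, and Cox6a1 1.53 ± 0.25 and 0.78 ± 0.26. All 4 were higher in the GFP-low library of all 5 pairs in each genotype. In WT, Cox6a1 and Cox8a each passed in 5 of the 10 fits that left out 1 library, and without WT GFP-low library 8 their adjusted p was 0.074 and 0.081.

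**Figure D5:**
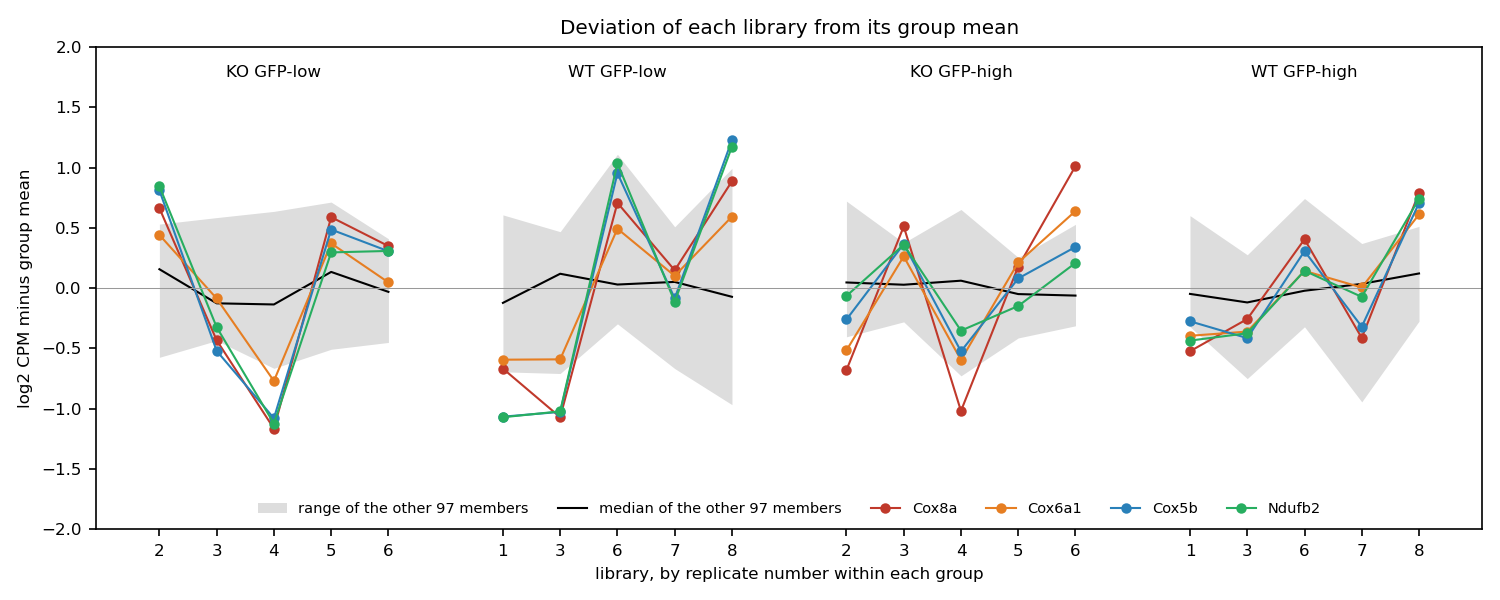
Deviation of log2 CPM from the group mean (y axis) in each library (x axis, replicate numbers) for Cox8a, Cox6a1, Cox5b and Ndufb2, over the range (grey) and median (black line) of the other 97 members. The 4 coloured lines run together, with KO library 4 low in both populations and WT library 8 high in both.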

How the data were processed

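RNA-seq of 20 libraries was read from 2 tables of expected counts per gene that the authors deposited, 1 table for GFP-low and 1 for GFP-high cells. TopHat2, Bowtie2, RSEM and the mm10 build are named in the submitters' processing notes; the sources used here give no versions, roles, strand setting or annotation. Of the deposited expected counts, 13.7% were not whole, and all were rounded. Among the members, 11 had a value that was not whole in at least 1 library, and 5 in at least 10 of 20. The lowest mean count of a gene was 17.0 in the GFP-high and 16.8 in the GFP-low table, so low genes may have been removed before deposit. All 20 columns of library values were used.

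The members and gene lists were chosen with earlier results of these data known. Comparisons used edgeR 4.0.16 (R 4.3.3) with TMM factors, filterByExpr at a minimum count of 10, the quasi-likelihood F test and Benjamini-Hochberg adjustment over all genes tested, with a threshold of 0.05. Only the groups compared entered a fit, except for the interaction, which used all 20 libraries. GFP-low against GFP-high used genes held by both tables, which come from separate filters but carry raw counts. CPM values are TMM-scaled, and log2 CPM used a prior count of 2. The script was tested on simulated data. Alternatives were DESeq2 1.42.0, its size factors in edgeR, library totals alone, no mt- rows in the scaling, no filter, a replicate block and leaving out each library in turn. Gene lengths and overlaps came from GENCODE M21, of which all 101 members had an entry, and Atp5o had 2.

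Same-numbered GFP-low and GFP-high libraries of a genotype were taken as paired, since their deviations from the group means correlated above 0.1 in all 10 pairs (r from 0.15 to 0.69), and 9 of 10 libraries matched their own number best. The numbers 3 and 6 occur in both genotypes and name different samples. Replicates differed beyond counting noise (chi-square per gene of at least 18.9). With totals of 20900404 to 27838392 counts, precision was limited by the spread between libraries, and intervals on shares cover counting error only. Named members were, in each group of a comparison, up to 4 with the smallest p in each direction, or the 5 with the smallest p where none passed, plus mitochondrially encoded genes, tissue isoforms and the members with the largest spread; others were named after their values were seen. Motif letters were searched with a script in RefSeq windows of GRCm38.p6. Results for some items withheld for evaluation are not reported here.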

Additional observations from a re-analysis of the deposited data

Results flagged for a closer look

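Of 140 sets of 5 libraries (33 named members and the count shares, by group), 4 held a library whose gap to its nearest neighbour exceeded Dixon's 95% critical value, where chance gives about 1 in 20. In KO GFP-high, Cox6b2 of complex IV had 3.34 CPM in library 4, and the nearest of the other libraries had 5.75 CPM. In KO GFP-low, the complex IV gene mt-Co3 had 7005 CPM in library 3, with the nearest library at 9941 CPM, and the complex I gene mt-Nd4l had 44.8 CPM in library 5, with the nearest at 27.4 CPM. In WT GFP-high, Sdhb of complex II had 899.99 CPM in library 3, with the nearest at 809.5 CPM. Each flag rests on 1 library, and none of these members was called between KO and WT in that population.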

How the results depend on the processing

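DESeq2's size factors in edgeR, scaling without mt- rows and no low-count filter changed no count of members called by more than 1.5 times. With library totals alone, 9 members rose and 19 fell in KO GFP-low over GFP-high cells and 5 rose and 14 fell in WT, and the median log2 fold change of the nuclear members was -0.0317 in KO and -0.16 in WT, against 0.22 and 0.20 under TMM. Among named members called under TMM, those whose sign turned under library totals were Ndufaf3 in KO (-0.00493) and Atp5g1 (-0.0476), Atp5j2 (-0.00798), Cyc1 (-0.00388) and Ndufs8 (-0.11) in WT. Members that were not called under TMM turned as well, among them Uqcrc1, Cox6b1, Cox7b, Atp5f1 and Atp5s in WT and Cox7b in KO. The nuclear median of KO over WT in GFP-low cells was 0.15 with library totals and -0.16 with the replicate block, against -0.003 in the fit without them, and that block joins numbers 3 and 6, which name different samples in KO and WT. DESeq2 called 1 member between KO and WT in GFP-high cells. With the replicate block 7 members fell in KO, beside 3154 of 11294 genes. Apart from the members named with it above, the block changed no other call of a named member. The mean nuclear share was 3.44% in KO GFP-high and 3.45% in WT GFP-high with nuclear genes as the total. Without Paneth genes it was 3.63% in WT GFP-low and 3.43% in KO GFP-high, groups that differ in both genotype and population. Within a genotype, GFP-low then exceeded GFP-high by a mean of 0.34 percentage points in KO pairs and 0.19 in WT pairs. In WT 1 of 5 pairs went the other way.

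Leaving out each library in turn gave 29 to 43 rising and 3 to 5 falling members in KO, and 18 to 30 rising and 2 to 3 falling in WT, with nuclear medians of 0.18 to 0.26 in KO and 0.16 to 0.24 in WT. No member was called between KO and WT or in the interaction without any 1 library. Leaving out WT GFP-low libraries 3 and 8 together, chosen after seeing the data, gave 17 rises and 2 falls in WT. Of all 11296 genes, 1994 rose and 1643 fell in that fit. The cause of these shifts was not tested. Expected counts hide how reads were shared between similar loci, and the tables give no length or strand. The lowest count of any member was in Cox6b2, which had 18 to 201 counts a library, while Ndufaf6 had 32 to 102.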

Other observations

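Outside the respiratory chain, 20 of 8293 genes with a mean of at least 8 CPM followed Cox8a over the 20 libraries with r of at least 0.9 after group means were removed. The 10 most alike were Adrm1, Aup1, Med28, Pigt, Apba3, Commd7, Jtb, Psmb4, Cldn3 and Galk1, which encode, among others, a proteasome ubiquitin receptor (Adrm1), a proteasome subunit (Psmb4) and a tight-junction claudin (Cldn3). Adrm1 followed it most closely (r = 0.97), with means of 129.7 CPM in KO GFP-low, 149 CPM in WT GFP-low, 34.6 CPM in KO GFP-high and 77.6 CPM in WT GFP-high libraries. Cldn3 (r = 0.93) averaged 798 CPM in KO GFP-low, 891 CPM in WT GFP-low, 183 CPM in KO GFP-high and 351 CPM in WT GFP-high libraries. Of the members, 2 besides Cox8a itself reached r of 0.9. The points share libraries, and these genes were picked for their likeness, so the values are a description with no test.

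Lymphocyte markers, 4 of 8 of which were measured in both tables, summed to 12.8 to 79.2 CPM in KO GFP-low, 4.0 to 52.9 CPM in WT GFP-low, 10.7 to 76.0 CPM in KO GFP-high and 4.4 to 46.4 CPM in WT GFP-high libraries, and none was called between KO and WT. The log2 fold change of KO over WT was above 0 for every lymphocyte marker measured in a population. It ran from 0.62 to 1.07 in GFP-high and from 0.42 to 1.08 in GFP-low cells. The part of these markers in the results was not tested.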
